A study of Mus musculus with 61 samples.

Results

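The nuclear genes for oxidative phosphorylation encode most subunits of the respiratory chain and of ATP synthase. They were taken as every gene of the deposited expression table whose symbol begins with Nduf followed by a, b, c, s or v and a digit, is *Sdha*, *Sdhb*, *Sdhc* or *Sdhd*, or begins with Uqcr, with Cox and a digit from 4 to 8, or with Atp5. With 1 row kept per Ensembl gene this gave 85 of 18396 genes, and no measured value entered the choice. Of these, 82 were counted as subunits: 7 core and 28 accessory subunits of complex I, 4 of complex II, 8 of complex III, 19 of complex IV, 5 of the F1 head and 11 of the membrane part and stalk of ATP synthase. The 19 include *Cox7a2l*, which links complexes into supercomplexes, and *Ndufa4l2*, a paralog of the subunit gene *Ndufa4*. The other 3 match by symbol only. They are *Atp5s*, which encodes a coupling factor, a row with the symbol *Ndufa13* whose Ensembl gene is annotated as *Yjefn3*, and the pseudogene *Ndufa11b*.

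The 61 libraries came from a study of ZFP708, a maternal KRAB zinc-finger protein of the mouse. Single GV oocytes, which are fully grown oocytes arrested before maturation, were sequenced as 7 libraries from WT females and 7 from *Zfp708* knockout (KO) females. The number of females is not given. Single zygotes came from embryonic day 0.5 (7 WT and 7 KO) and single 2-cell embryos from day 1.5 (7 WT and 8 KO). Pools of 10 blastocysts came from day 3.5 (3 WT and 3 KO). For these embryos KO means that the mother lacked ZFP708. The mESCs were 3 WT control libraries, 3 libraries of cells without maternal and zygotic ZFP708, and E14 cells as 3 control libraries and 3 libraries of cells that overexpressed (OE) FLAG-tagged ZFP708 after transfection, puromycin selection and sorting for GFP. Whether the E14 controls passed through the same steps is not given in the sources used here. Neither is their culture medium, nor the strain or the age of the females. The paper derived its WT and KO mESC lines from day 3.5 embryos in 2i medium on feeder cells, before feeder-free culture. The KO allele is a short frameshift deletion that leaves the transcript in place, so the level of this transcript cannot check which libraries are KO. *Zfp708* lay between 72.6 and 122 normalized counts in KO GV oocytes and between 44.2 and 122 in WT GV oocytes. In OE cells it lay between 530 and 722, against 6.35 to 7.03 in the E14 controls.

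Oxidative phosphorylation passes electrons from NADH through complex I, or from succinate through complex II, to complex III and, by way of cytochrome c, to complex IV, which reduces oxygen. Complexes I, III and IV pump protons across the inner mitochondrial membrane, and ATP synthase uses their return to make ATP. A few subunits of complexes I, III, IV and V are encoded by mitochondrial DNA (mtDNA), and the nuclear subunits join them after import. Oocytes and cleavage embryos are known to run mainly on pyruvate oxidised in maternally inherited mitochondria, and mtDNA does not replicate appreciably until late preimplantation development.

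Values are read counts divided by a size factor for each library, here called normalized counts. They are relative to the other RNA of a library, and rose and fell describe this relative level. Total RNA per oocyte or embryo and the capture of transcripts by each library method were not examined. The single oocyte and embryo libraries held 2486334 to 4844699 reads in genes, and the blastocyst and mESC libraries 12469548 to 19596785. A gene's count was tested where it reached 1 in at least as many libraries as the smaller group held. *Ndufa11b* never exceeded 0.607 and was tested in no comparison, and neither was the testis-type subunit gene *Cox7b2*, which was at 0 in every GV oocyte and zygote. Fold changes are differences of log2(value + 1) with their standard error, tested with limma, two-sided, and adjusted over all genes by the Benjamini-Hochberg method with a threshold of 0.05. This scale understates the change of genes with low counts. Counts of genes at an unadjusted p under 0.05 are given without the share of all genes at that threshold. Such counts do not show whether these genes differed more often than others. Since most replicates are not stated to come from separate females or cultures, p-values measure the spread between these libraries only. In bulk RNA, fewer cells of a type and less RNA per cell cannot be told apart.

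Several libraries stood apart. In KO 2-cell embryos the summed level of 10 cumulus and granulosa cell markers ran from 92.7 to 5186, against 72.2 to 100 in WT 2-cell embryos, and it was 1340 in library 2 and 5186 in library 7. The granulosa hormone subunit gene *Inha* was at 749 and 3347 in those libraries and at most 0.962 in any WT 2-cell embryo. In the other KO 2-cell libraries *Inha* was at 11.2 to 186, so every KO library lay above every WT library. The library labelled KO 2-cell 7 had a sum of 0 over the 6 markers of 2-cell genome activation, which all other 2-cell libraries expressed, so its label is in doubt. WT GV library 6 was high in many of the genes described here. The 3 E14 control libraries differed from each other by 1.08 to 1.13 times the variance that read sampling gives (chi-square per degree of freedom), close to repeat sequencing of 1 sample, and were kept as 3. OE libraries 1 and 2 differed by 1.26 times.

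Promoter windows are shown for 4 genes that the results below turn on. *Cox6b1* and *Cox6b2* encode alternative forms of a complex IV subunit that moved apart during preimplantation development. *Uqcrc1* had the steepest increase at the 2-cell stage and *Sdha* was among the few genes that were not reduced in zygotes. Each window runs from 250 bases before to 50 bases after the annotated start, 5′ to 3′ on the strand of the gene, and comes from RefSeq on GRCm38.p6. Capitals mark matches on either strand to the consensus motif of NRF1, a palindrome with a free base near its centre, and to the motifs of ETS factors (CCGGAAG) and YY1 (AAGATGGC), factors known to act on promoters of respiratory genes.

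*Cox6b1* (chr7:30626065-30626364, minus strand): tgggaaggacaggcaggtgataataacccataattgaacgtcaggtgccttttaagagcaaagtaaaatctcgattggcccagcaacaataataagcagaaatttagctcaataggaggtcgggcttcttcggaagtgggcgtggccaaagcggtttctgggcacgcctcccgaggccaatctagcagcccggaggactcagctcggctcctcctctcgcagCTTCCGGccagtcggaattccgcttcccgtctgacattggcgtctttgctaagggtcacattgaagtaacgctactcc
*Cox6b2* (chr7:4753045-4753344, minus strand): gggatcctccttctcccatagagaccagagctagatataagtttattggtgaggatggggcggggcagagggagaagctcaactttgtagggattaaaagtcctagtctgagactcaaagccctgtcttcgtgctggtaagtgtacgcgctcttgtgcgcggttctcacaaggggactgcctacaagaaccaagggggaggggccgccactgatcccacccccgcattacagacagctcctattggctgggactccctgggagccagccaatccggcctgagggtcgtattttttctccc
*Uqcrc1* (chr9:108936398-108936697, plus strand): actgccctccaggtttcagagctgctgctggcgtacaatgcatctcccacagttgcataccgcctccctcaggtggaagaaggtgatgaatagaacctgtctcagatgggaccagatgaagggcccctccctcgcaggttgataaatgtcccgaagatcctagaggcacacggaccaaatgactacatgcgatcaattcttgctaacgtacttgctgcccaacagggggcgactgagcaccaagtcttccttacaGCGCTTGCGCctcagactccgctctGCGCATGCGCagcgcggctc
*Sdha* (chr13:74350191-74350490, minus strand): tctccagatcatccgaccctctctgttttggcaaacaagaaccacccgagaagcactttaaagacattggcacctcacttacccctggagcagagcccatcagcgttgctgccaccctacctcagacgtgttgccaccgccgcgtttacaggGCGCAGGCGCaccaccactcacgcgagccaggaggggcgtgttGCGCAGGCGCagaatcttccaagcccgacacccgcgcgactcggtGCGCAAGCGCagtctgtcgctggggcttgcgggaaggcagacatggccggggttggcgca

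The *Cox6b1* window held an ETS match at bases -28 to -22 from the start and the *Cox6b2* window held none of the 3 motifs. *Uqcrc1* had NRF1 matches at bases 6 to 15 and 31 to 40 after the start, and *Sdha* had 3, at -98 to -89, -55 to -46 and -10 to -1. Promoters were found for 68 of the 85 genes. The NRF1 motif was present in 17 of them (25%), against 8.67% of the 14492 genes found in both the promoter and the expression table. The ETS motif was present in 16 (23.5% against 15.3%) and the YY1 motif in 10 (14.7% against 4.13%), and 31 of the 68 had none of the 3. A match is a description of the sequence and was not tested for binding.

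The share of all normalized counts held by the 85 genes changed with stage (the plot of shares by library). In WT GV oocytes it lay between 0.811% and 1.005% (median 0.835%), and in WT zygotes between 0.287% and 0.323% (median 0.307%). WT 2-cell embryos held 0.602% to 0.730% (median 0.619%), and the 3 WT blastocyst pools 2.47%, 3.00% and 3.05%. These 4 ranges did not overlap, with zygotes lowest and blastocysts highest. The WT mESC libraries held 1.21%, 1.22% and 1.24%, below every blastocyst pool. The order was the same in KO samples except at the 2-cell stage, where the 8 libraries spread from 0.577% to 2.61%, and the 2 highest, libraries 7 and 2, were those with the most granulosa marker RNA.

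**Figure D1:**
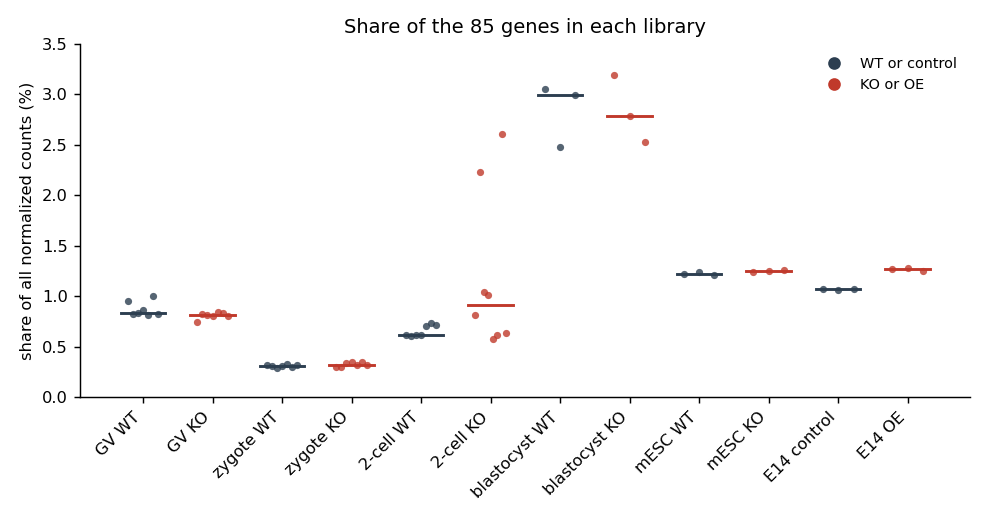
Share of all normalized counts (percent, vertical axis) held by the 85 nuclear oxidative phosphorylation genes in each of the 61 libraries, by condition, with points for libraries (dark for WT or control, red for KO or OE) and a line at the condition's median. WT zygotes lay lowest, with a median of 0.307%, blastocysts highest, with a WT median of 3.00%, and KO 2-cell libraries 2 and 7 stood at 2.23% and 2.61%, far above the WT 2-cell embryos.

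Between WT GV oocytes and zygotes nearly all of these genes fell. Of 80 tested, 72 were lower and 5 higher in zygotes (64.9% of all 11609 genes tested were called, 32.7% lower and 32.3% higher). The median log2 change of the 80 genes was -2.23, against 0.02 over all genes tested, and for 65 every zygote lay below every oocyte and for 3 above, as for 19.7% and 16% of all genes. In complex I, which oxidises NADH, all 7 core subunits fell. *Ndufv1*, which carries the NADH site, was at 78.1 to 123 (median 102) in GV oocytes and 4.52 to 10.3 (median 8.60) in zygotes, with no overlap (log2 change -3.47, SE 0.18, adjusted p = 2.86e-13). *Ndufs1*, the largest core subunit, went from a median of 34.3 to 21.3 with overlapping ranges (log2 change -0.63, SE 0.18, adjusted p = 0.0042). Among the accessory subunits 26 of 28 fell. *Ndufa9* went from 131 to 257 (median 162) down to 4.11 to 9.75 (median 5.07), the smallest p of the decreases (log2 change -4.74, SE 0.19, adjusted p = 4.03e-15).

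In complexes III and IV the decrease was as broad, with 7 of 8 and 15 of 17 tested genes lower in zygotes. *Uqcrc1*, a core protein of complex III, was at 6.07 to 21.8 (median 12.2) in GV oocytes and at 0 to 2.24 (median 0.582) in zygotes, where 3 of 7 libraries had no read. *Cox4i1*, the common form of the regulatory subunit of complex IV, was at 287 to 477.5 (median 323) and then at 22.7 to 46.2 (median 32.9), without overlap (log2 change -3.34, SE 0.15, adjusted p = 3.61e-14). All 10 tested genes of the membrane part and stalk of ATP synthase fell, with a median log2 change of -2.65. In the F1 head *Atp5a1* fell by 1.34 on the log2 scale (SE 0.14, adjusted p = 3.99e-08), while the catalytic subunit *Atp5b* was at 318 to 582 (median 447) and 387.5 to 597.5 (median 471) and did not pass (log2 change 0.09, SE 0.14, adjusted p = 0.604).

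Complex II, the succinate dehydrogenase that also serves the TCA cycle, did not move as 1 unit. The flavoprotein *Sdha* was at 125 to 207 (median 156) in GV oocytes and 155 to 265 (median 210) in zygotes (log2 change 0.34, SE 0.14, adjusted p = 0.0418), a call that was lost in most alternative fits. Its partner *Sdhb*, the iron-sulphur subunit, was at 76.0 to 133 (median 88.3) and then 2.78 to 12.1 (median 5.82), with no overlap (log2 change -3.79, SE 0.21, adjusted p = 1.37e-12). *Sdhc*, a membrane anchor, was at 94.7 to 151 in GV oocytes and 97.97 to 111 in zygotes and did not pass, and the anchor *Sdhd* fell from a median of 274 to 67.0.

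Of the 5 genes that rose, 3 had ranges that did not overlap. *Ndufa10*, an accessory subunit of complex I on chromosome 1 (mm9, 94335587 to 94370437, minus strand), was at 81.7 to 113 in GV oocytes and 221 to 297 (median 268) in zygotes (log2 change 1.38, SE 0.11, adjusted p = 3.31e-10). *Cox8a*, a small subunit of complex IV, went from a median of 95.8 to 225 and *Cox6b2*, the testis-type form of COX6B, from 43.7 to 93.8. *Uqcrc2*, the second core protein of complex III, rose from a median of 298 to 424 with overlapping ranges. The calls for *Sdha* and *Uqcrc2* were lost under quantile normalization, which moved the median of all genes by 0.24 on the log2 scale. Under the same normalization *Atp5b* turned to a decrease, the only reversal of a named gene at this step among the scalings tried.

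At the 2-cell stage most of these genes rose. Of 79 tested between WT zygotes and WT 2-cell embryos, 55 were higher and 9 lower (75.1% of all genes were called, 36.3% higher and 38.8% lower), with a median log2 change of 1.37 against -0.10 over all genes. The groups did not overlap for 47 genes higher and 7 lower, as for 25.3% and 24.1% of all genes. The WT zygote libraries entered both this step and the one before. All 7 core subunits of complex I rose, *Ndufv1* to a range of 17.3 to 29.0 (median 21.8). Of the 28 accessory subunits 14 rose, 3 fell and 11 did not pass. In complex III 7 of 8 rose. *Uqcrc1* was at 28.4 to 150 (median 82.7) in 2-cell embryos, every library above every zygote and every GV oocyte (log2 change 5.61, SE 0.37, adjusted p = 1.42e-11).

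In ATP synthase 9 of 10 tested membrane and stalk genes and 4 of 5 F1 genes rose. *Atp5j*, which encodes coupling factor 6 of the stalk, went from 2.62 to 5.16 (median 3.49) in zygotes to 74.96 to 141 (median 94.9) in 2-cell embryos (log2 change 4.41, SE 0.21, adjusted p = 1.16e-13). Its exons share 397 bases, 12.7% of their length, with *Gabpa* on the opposite strand, which went from a mean of 0.664 to 527.5 at the same step, and the part of reads from *Gabpa* was not tested. *Atp5g1*, one of the genes for the c subunit of the rotor ring, went from a median of 7.10 to 168. In complex IV 12 of 16 tested genes rose and 1 fell, and *Cox4i1* reached 215 to 287 (median 238), above all zygotes and up to the lowest GV oocyte. *Cox5a*, a subunit of complex IV, was at 149 to 189 and then 146 to 251 and did not pass (adjusted p = 0.333).

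Of the 5 genes that had risen in zygotes, *Ndufa10*, *Uqcrc2* and *Sdha* fell at the 2-cell stage, while *Cox8a* and *Cox6b2* rose further, to means of 380.2 and 154.1 from 222.8 and 97.76. *Ndufa10* dropped to 13.7 to 47.3 (median 26.6; log2 change -3.29, SE 0.20, adjusted p = 5.89e-12). *Uqcrc2* dropped from 260 to 573 in zygotes to 24.5 to 88.7 (median 41.0), and *Sdha* from a median of 210 to 41.0, each without overlap. *Sdhc* and *Sdhd* fell as well, from medians of 106 and 67.0 to 18.0 and 23.4, so 3 of the 4 complex II genes were lower while *Sdhb* was higher (median 27.6). The 2 core proteins of complex III thus changed in opposite directions at this step, *Uqcrc1* up and *Uqcrc2* down. *Ndufs4*, an accessory subunit of complex I, and *Cox7a2l*, which links complexes into supercomplexes, were among the other genes that fell.

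From the 2-cell embryo to the blastocyst 73 of 82 tested genes were higher and 3 lower (65.8% of all genes called, 32.8% higher and 33% lower), with a median log2 change of 2.38 against -0.07 over all genes. The same 73 and 3 had groups that did not overlap, as for 30% and 27.8% of all genes. Stage, pooling of embryos, library depth and library protocol cannot be told apart in this comparison. The methods do not give the protocol of the blastocyst libraries. All genes of complexes II and III, all 5 F1 genes, all 11 membrane and stalk genes and all 7 core genes of complex I rose. *Atp5b* was at 460 to 705 (median 649) in 2-cell embryos and at 2938, 2979.8 and 3067 in the WT blastocyst pools, the most abundant of the named core subunits (log2 change 2.27, SE 0.15, adjusted p = 7.49e-09). *Atp5a1* went from a median of 196 to 1562, 1646 and 1684. *Uqcrc1* reached 792, 822 and 869, and *Sdha* 401, 416 and 458. For each of these genes all 3 pools lay above every 2-cell embryo.

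*Atp5g3*, another c subunit gene, had the largest increase of the tested genes, from 18.2 to 68.4 (median 28.7) to 741, 1187 and 1199 (log2 change 5.04, SE 0.36, adjusted p = 1.43e-08). *Ndufa5*, an accessory subunit of complex I, went from 4.31 to 13.1 to 182, 224 and 246 (log2 change 5.00, SE 0.34, adjusted p = 9.98e-09). The 3 genes that fell were all alternative forms of complex IV subunits, *Cox6b2*, *Cox4i2* and *Cox6a2*. The genes that did not pass were *Ndufa2*, *Ndufb2*, *Cox8a*, *Cox8c* and 2 genes that are not subunits, *Atp5s* and *Yjefn3*.

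**Figure D2:**
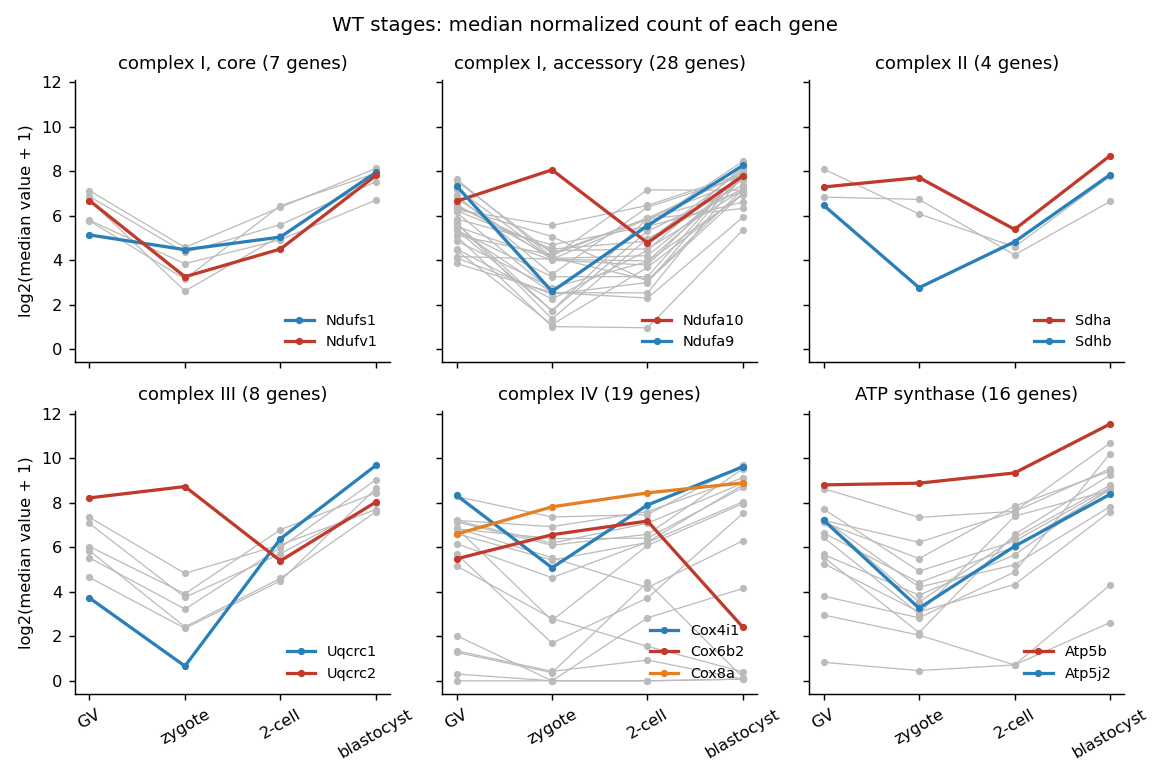
Median normalized count of each gene, as log2(median + 1), in WT GV oocytes, zygotes, 2-cell embryos and blastocysts, with 1 panel per complex, a grey line per gene and named genes in colour. Most lines dip at the zygote, as *Ndufa9* does from a median of 162 to 5.07, and climb to the blastocyst, while *Ndufa10*, *Uqcrc2* and *Sdha* are up in zygotes and dip at the 2-cell stage.

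The same steps in KO samples gave similar counts. Between KO GV oocytes and KO zygotes 4 of 79 tested genes were higher and 70 lower (64.4% of all genes called, 31.9% higher and 32.5% lower), and *Ndufa10*, *Cox8a*, *Cox6b2* and *Sdha* were the 4. The groups did not overlap for 65 lower and 3 higher, against 19.7% and 17.7% of all genes. *Ndufa10* was at 93.9 to 122.5 in KO GV oocytes and 248 to 315 in KO zygotes (log2 change 1.39, SE 0.10, adjusted p = 2.33e-11), and *Ndufa9* went from a median of 172 to 7.83. From KO zygotes to KO 2-cell embryos 61 of 79 were higher and 5 lower (66.2% of all genes called). Without KO 2-cell libraries 1, 2, 3, 4 and 7, those with the most granulosa marker RNA, 49 were higher and 10 lower of 80 (61.2% of all genes called), a setting chosen after seeing the data. *Uqcrc1* was at 0.481 to 2.79 in KO zygotes and 45.6 to 624 (median 146) in KO 2-cell embryos, and *Uqcrc2* and *Ndufa10* fell, as in WT.

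Subunits with alternative forms were followed as pairs. *Cox6b2* (chromosome 7, mm9 4703396 to 4704696) is expressed mainly in testis in the adult, and *Cox6b1* (chromosome 7, 31401993 to 31411170) in most tissues. As a share of both genes per length of annotated exon, *Cox6b2* made up 33.2% to 40.7% in WT GV oocytes (median 34.9%), 73.6% to 84.1% in zygotes (median 79.6%), 50.6% to 76.9% in 2-cell embryos (median 67.0%) and 0.798%, 0.864% and 1.49% in blastocysts. The GV, zygote and blastocyst ranges did not overlap with each other. In normalized counts *Cox6b2* was at 97.02 to 269.5 (median 144) in WT 2-cell embryos and 3.93, 4.29 and 4.95 in blastocysts (log2 change -4.78, SE 0.27, adjusted p = 1.53e-09), while *Cox6b1* went from 50 to 108 up to 301, 448 and 451 (log2 change 2.42, SE 0.24, adjusted p = 4.65e-07). In WT mESCs *Cox6b2* made up 22.1%, 25.1% and 28.8%, more than in blastocysts and less than in GV oocytes.

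*Cox4i2*, the hypoxia-responsive form known mainly from lung, peaked at the 2-cell stage. It was at 1.17 to 4.60 in WT GV oocytes, 0 to 2.07 in zygotes, 11.6 to 31.2 (median 20.5) in 2-cell embryos and 0, 0.107 and 0.121 in blastocysts, so the 2-cell libraries lay above those of every other WT stage. Its share of COX4 per length reached a median of 6.70% at that stage. *Cox6a2*, the heart and muscle form, was highest in GV oocytes at 20.4 to 41.9 (median 34.9), fell to 0.688 to 9.30 in zygotes and was at 0.0728, 0.322 and 0.604 in blastocysts, a share of COX6A that went from 19.3% to 0.0595% by median. *Cox7a1*, the other heart and muscle form, ran the opposite way. It was at 0 in all 7 KO zygotes and 6 of 7 WT zygotes, at 3.51 to 6.83 in WT 2-cell embryos and at 12.2, 16.8 and 17.0 in WT blastocysts, at least 18.0-fold above the KO zygotes when these are set to 3 reads per library. *Cox7a2*, the liver-type form, exceeded it in normalized counts in every group.

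The c subunit of ATP synthase is encoded by 3 genes with the same mature protein. *Atp5g1* was the highest of the 3 in WT GV oocytes and 2-cell embryos by normalized counts (medians 86.0 and 168), and *Atp5g3* in blastocysts (median 1187 against 379 for *Atp5g1* and 18.8 for *Atp5g2*). Per length of annotated exon, *Atp5g3* had a median share of the 3 of 16.4% in WT GV oocytes, and of 30.6%, 25.01% and 82.8% at the zygote, 2-cell and blastocyst stages. The annotated exons of *Atp5g1* span 4908 bases, which lowers its level per length, and 100% of the 75-base windows of *Atp5g2* occur elsewhere in the genome, so its counts are uncertain. In all, 13 of the genes had 20% or more of their windows elsewhere, among them *Atp5l*, *Cox5b*, *Ndufs5*, *Cox7c* and *Atp5g1*. Annotated exons of 19 of the genes overlap those of another gene, for 3 over 20% or more of their bases (*Ndufb6*, *Cox5a* and *Ndufa13*). The single oocyte and embryo libraries were made by a method that does not mark strand, so reads of these genes and of antisense partners cannot be told apart there.

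**Figure D3:**
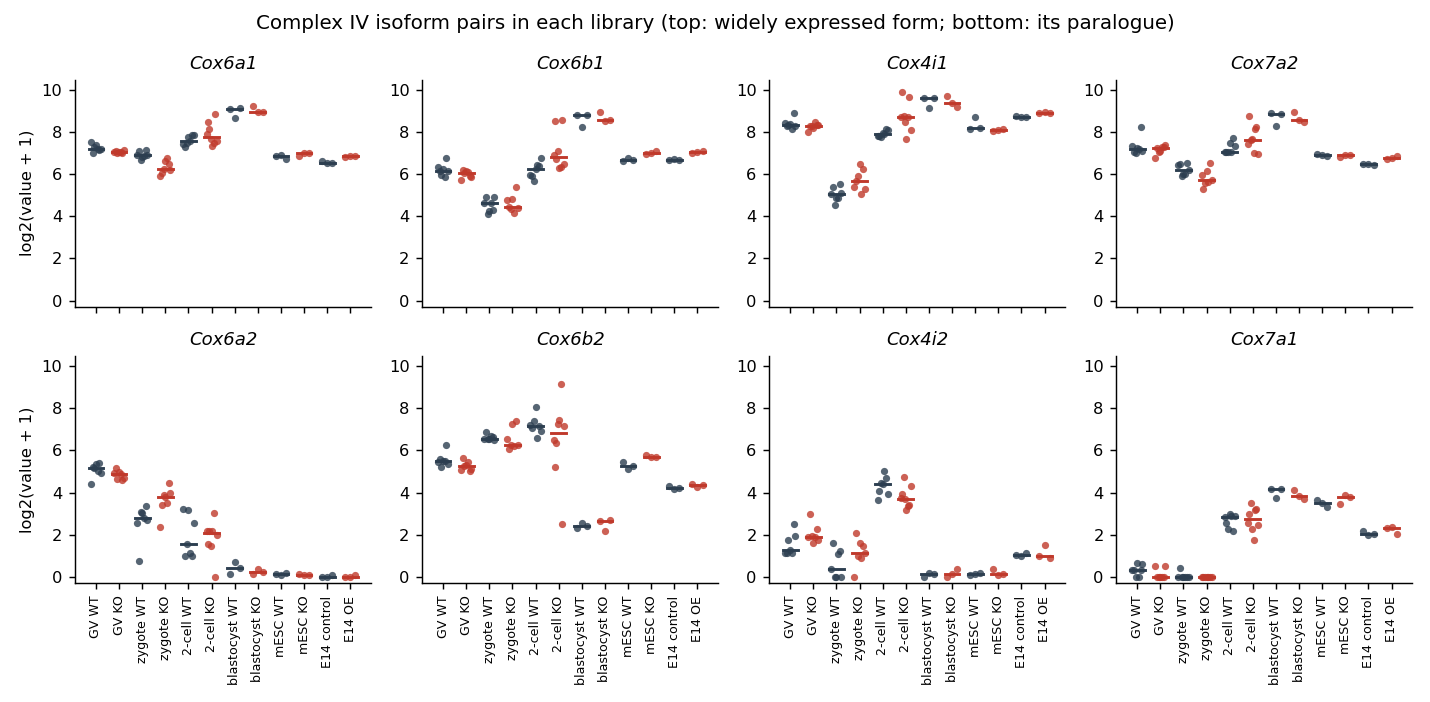
Normalized counts as log2(value + 1) for 4 pairs of complex IV subunit genes, the widely expressed form above and its paralog below, in each library of the 12 conditions, with points for libraries (dark for WT or control, red for KO or OE) and a bar at each median. *Cox6b2* falls to 3.93 to 4.95 in WT blastocysts, where *Cox6b1* reaches 301 to 451, and *Cox4i2* peaks in 2-cell embryos.

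In GV oocytes loss of ZFP708 gave no called change. None of 81 tested genes passed with limma (3.64% of all genes were called, 1.44% higher and 2.2% lower). An unadjusted p under 0.05 was reached by 5, while edgeR called none and DESeq2 1, lower in KO (3.69% and 8.42% of all genes called). The groups overlapped for all 81, where 0.671% of all genes lay entirely higher and 0.705% entirely lower in KO. The median log2 change was -0.12, against 0.00 over all genes. *Uqcrc1* was at 3.96 to 14.3 (median 5.51) in KO oocytes and 6.07 to 21.8 (median 12.2) in WT oocytes, overlapping, with an adjusted p of 0.0612 (log2 change -0.93, SE 0.28). The core subunits *Ndufv1* (medians 110 and 102) and *Atp5b* (471 and 447) overlapped over most of their range.

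In zygotes 13 of 76 tested genes were higher in KO and 4 lower (14.6% of all genes called, 8.19% higher and 6.38% lower), so 22.4% of the tested genes were called. For 6 genes the ranges did not overlap, each time with KO higher, as for 2.4% of all genes. *Atp5g1* was at 20.5 to 25.2 (median 21.7) in KO zygotes and 5.17 to 14.3 (median 7.10) in WT (log2 change 1.31, SE 0.22, adjusted p = 0.000159). Every KO zygote lay above every WT zygote. *Atp5j2*, the f subunit of the membrane part, was at 13.9 to 40.5 (median 23.8) and 6.24 to 11.1 (median 8.60), again without overlap (log2 change 1.35, SE 0.23, adjusted p = 0.000239). *Cox5a* was at 211 to 381 (median 262) and 149 to 189 (median 164; log2 change 0.76, SE 0.14, adjusted p = 0.000375).

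The other genes higher in KO zygotes were spread over the complexes. In complex I they were the accessory subunits *Ndufa8*, *Ndufb5*, *Ndufb7* and *Ndufb11* and the core subunit *Ndufs3*, and in complex III *Uqcr10* and *Uqcrh*, small subunits of which the latter is the hinge protein near cytochrome c. *Uqcr10* was at 13.2 to 26.1 in KO and 5.98 to 10.48 in WT. In complex IV they were *Cox4i1*, *Cox5a* and *Cox7b*, and in the F1 head *Atp5a1*, at 165 to 300 (median 273) and 126 to 176 (median 161.5), where the ranges met (log2 change 0.63, SE 0.15, adjusted p = 0.00441). All 13 genes had fallen from WT GV oocyte to WT zygote, as had nearly all of the genes described here. The WT zygote libraries entered both comparisons, so genes called higher in KO zygotes were more likely to show this fall. From KO GV oocyte to KO zygote all of them fell except *Cox5a*, which had a mean of 302.6 in KO oocytes and 286.6 in KO zygotes and did not pass (log2 change -0.10, SE 0.13, adjusted p = 0.53). The annotated exons of *Cox5a* share 38.7% of their bases with *Gm17596* on the opposite strand.

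The 4 genes lower in KO zygotes were *Ndufa1*, *Cox6a1*, *Ndufa4* and *Atp5c1*. *Ndufa1*, a small accessory subunit needed for the membrane arm, was at 3.89 to 22.6 (median 10.9) in KO and 19.6 to 29.3 (median 24.9) in WT (log2 change -1.13, SE 0.26, adjusted p = 0.00491), and the ranges overlapped. *Cox6a1*, the widely expressed form of COX6A, was at 58.7 to 111 and 100.5 to 141 (log2 change -0.60, SE 0.14, adjusted p = 0.00602). Its alternative form *Cox6a2* was at 4.09 to 20.5 (median 12.6) and 0.688 to 9.30 (median 5.98) and did not pass (adjusted p = 0.0542).

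The KO effect differed between zygotes and GV oocytes for 16 of 81 genes by the interaction term in limma, 15 with the effect higher in zygotes and 1 lower (6.8% of all genes called, 3.84% and 2.97%). *Atp5j2* (difference of the log2 effects 1.45, SE 0.25, adjusted p = 0.000172) and *Atp5g1* (1.26, SE 0.22, adjusted p = 0.000201) had the smallest p. *Ndufa1* was the 1 gene with the effect lower in zygotes (SE 0.30, adjusted p = 0.0353). A single fit over all 12 conditions called 5 (1.24% of all genes).

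In 2-cell embryos none of 79 tested genes passed with limma (0.708% of all genes called, 0.7% higher and 0.00795% lower). At an unadjusted p under 0.05 there were 37, a count without the share of all genes at that threshold. The calls were 5 with edgeR and 33 with DESeq2, which called 2.12% and 7.29% of all genes. KO and WT overlapped for all 79, while 0.469% of all genes lay entirely higher in KO. The estimates were positive for 75 of 79, with a median log2 difference of 0.83 against -0.06 over all genes. The median depended on which KO libraries were kept, and these differed in more than granulosa marker RNA. The sum of oocyte markers was 1844 to 5625 in libraries 5, 6 and 8 and 152 to 1333 in the other KO libraries. The sum of 2-cell activation markers was 299 to 784 and 0 to 140.5 in the same libraries. Without libraries 2 and 7 the median was 0.32, with 0 called by limma and 13 at an unadjusted p under 0.05 (0.647% of all genes called). Without libraries 1, 2, 3, 4 and 7 it was -0.04, with 39 of 82 estimates positive, 0 called and 5 at an unadjusted p under 0.05 (0.268% of all genes called). Libraries 5, 6 and 8, the KO libraries left, still held *Inha* at 11.2 to 48.7. Without libraries 7 and 8, whose titles carry the same number, 1 gene passed (median 0.74). *Sdhb* was at 453 and 439 in libraries 2 and 7 and at 14.5 to 101 in the other 6, against 14.01 to 39.9 in WT 2-cell embryos. *Uqcrc1* was at 248 and 624 in libraries 2 and 7, at 45.6 to 173 in the others and at 28.4 to 150 in WT.

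*Cox6b2* went the other way in the same libraries, with 36.2 in library 2 and 4.66 in library 7 against 81.97 to 571 in the other KO and 97.02 to 269.5 in the WT embryos. *Atp5g1*, higher in KO zygotes, was at 138 to 254 (median 196) in KO and 131 to 189 (median 168) in WT 2-cell embryos and did not pass (log2 difference 0.27, SE 0.21, adjusted p = 0.538). For *Atp5g1* the KO effect was lower at the 2-cell stage than in zygotes by the interaction term (-1.05, SE 0.28, adjusted p = 0.0449). *Cox7c* and *Atp5c1* were the other 2 of the 3 genes called among 81 by that term (1.44% of all genes called), with effects higher at the 2-cell stage by 2.36 and 1.43. These 3 calls changed with many settings and 0 were left without libraries 1, 2, 3, 4 and 7. The part of the granulosa, oocyte or 2-cell activation marker RNA in these differences was not tested.

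**Figure D4:**
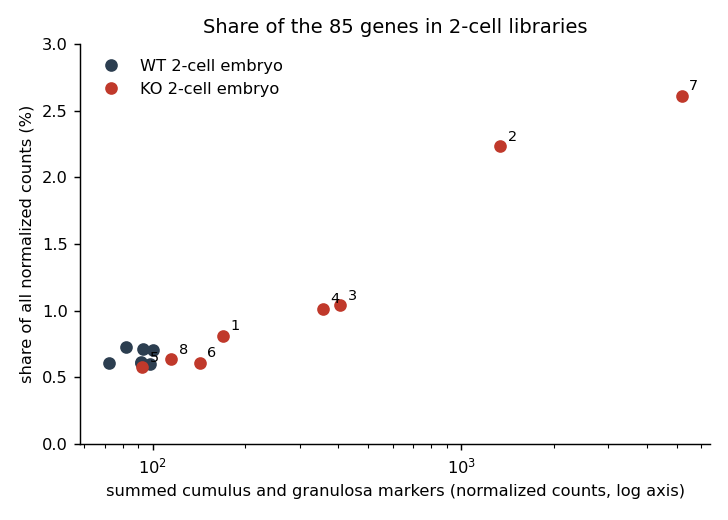
Share of all normalized counts held by the 85 genes (percent, vertical axis) against the summed normalized counts of 10 cumulus and granulosa markers (log axis) in each 2-cell embryo, WT and KO. The 7 WT embryos sit between 72.2 and 100 on the marker axis and at most at 0.730% in share, and KO libraries 2 and 7 lie far to the upper right, at 2.23% and 2.61%.

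In blastocysts none of 78 tested genes passed with limma, edgeR or DESeq2, and 0 had an unadjusted p under 0.05 (0.00885% of all genes called). The median log2 difference was 0.00, and the estimates lay between -0.13 and 0.15. *Atp5b* was at 2426, 3017 and 3062 in KO and 2938, 2979.8 and 3067 in WT pools. *Uqcrc1* was at 687, 813 and 895 in KO and 792, 822 and 869 in WT pools, and no tested gene had groups that did not overlap, against 2.86% of all genes with KO higher and 3.09% with KO lower.

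In mESCs without ZFP708 7 of 79 tested genes were higher and 3 lower, 12.7% of those tested against 13.9% of all genes called (8.26% higher and 5.6% lower), and the median log2 difference was 0.02. These calls depended on single libraries. Leaving out KO library 1, 2 or 3 left 4, 1 and 1 calls, and leaving out WT library 1, 2 or 3 gave 3, 17 and 2. A fit in which KO libraries 2 and 3, and WT libraries 1 and 3, were averaged, pairs that differed by 1.72 and 3.28 times the variance of read sampling, gave 0, with 9 at an unadjusted p under 0.05 (1.23% of all genes called). The sum of 6 pluripotency markers was 3952 to 4025 in KO and 3253 to 3612 in WT mESCs, and the sum of 7 trophectoderm markers 112 to 125 and 152 to 193, with no overlap for either. Their part in these differences was not tested. *Uqcr10* was at 111, 115 and 122 in KO and 86.5, 88.7 and 88.7 in WT (log2 difference 0.39, SE 0.06, adjusted p = 0.0105). *Cox6b1*, *Cox6b2*, *Cox8a*, *Atp5g1*, *Uqcrb* and *Ndufv2* were the others that were higher, with log2 differences of 0.23 to 0.44, and *Atp5e* and *Ndufa12* were lower, with log2 differences of -0.39 and -0.32.

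The gene with the largest difference was *Ndufa4l2* (chromosome 10, mm9 126951995 to 126954208, plus strand), a hypoxia-inducible paralog of the complex IV subunit *Ndufa4*. It was at 0.170, 0.265 and 0.325 in KO mESCs and 2.62, 4.72 and 5.22 in WT mESCs (log2 difference -2.01, SE 0.22, adjusted p = 0.00479). Every KO library lay below every WT library. In E14 cells it was at 3.55, 4.23 and 4.51 in controls and 6.54, 12.03 and 14.5 after overexpression (log2 difference 1.18, SE 0.24, adjusted p = 0.00344). The level was low in all 4 groups, and neither difference passed with near-identical libraries averaged. *Ndufa4* itself was far more abundant, with *Ndufa4l2* making up medians of 1.93% and 0.0973% of the pair per length in WT and KO mESCs.

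In OE cells 61 of 79 tested genes were higher than in E14 controls and 1 lower (49.9% of all genes called, 21.9% higher and 28.1% lower). The median log2 difference was 0.25, against -0.02 over all genes, and the groups did not overlap for 64 genes higher and 1 lower, as for 26.6% and 32.5% of all genes. All 8 genes of complex III and all 4 of complex II were higher, with 6 of 7 core and 18 of 27 accessory genes of complex I, 13 of 16 of complex IV, 4 of 5 of the F1 head and 8 of 10 of the membrane part and stalk. *Atp5f1*, the b subunit of the stalk, was at 309, 310.0 and 315 in OE and 238, 240 and 242 in control cells (log2 difference 0.37, SE 0.03, adjusted p = 5.11e-06). *Ndufb11*, a membrane arm subunit of complex I, was at 63.2, 63.3 and 63.3 against 43.8, 44.1 and 44.3. Apart from *Ndufa4l2* the differences were below 1 on the log2 scale. *Ndufa13*, an accessory subunit of complex I, was the 1 gene that fell, from 56.9, 60.7 and 62.6 to 51.4, 53.4 and 54.6 (log2 difference -0.17, SE 0.05, adjusted p = 0.0152).

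The number of calls depended on how the libraries were counted. With the 3 E14 controls averaged as 1 sample and OE libraries 1 and 2 as another, which leaves 1 sample against 2 and takes the spread from all 4 mESC groups, 0 of 79 genes passed with limma and 31 had an unadjusted p under 0.05 (0.302% of all genes called). The median log2 difference was then 0.26, with 76 estimates positive. With the spread taken from all 12 conditions 1 passed, *Ndufa4l2* (1.26% of all genes called). The summed level of 12 fibroblast markers was 111 to 120 in E14 controls and 17.2 to 28.3 in OE cells, and the sum of the 6 pluripotency markers was 2872 to 2931 and 3534 to 3796. The part of these in the difference was not tested, and overexpression cannot be told apart from transfection, selection and sorting.

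**Figure D5:**
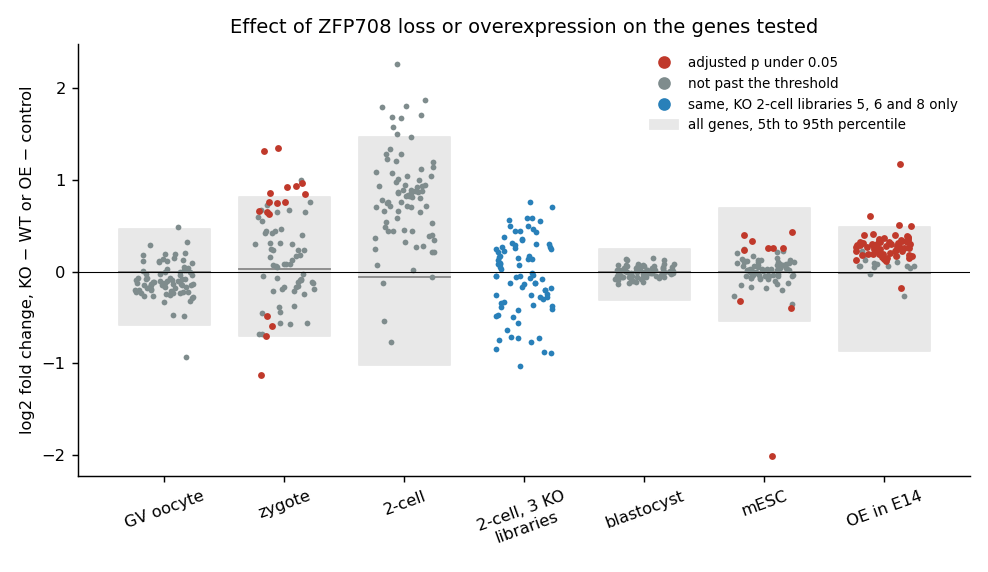
Log2 differences (KO minus WT, or OE minus control) with a point per tested gene, red where the adjusted p is under 0.05 and grey where it is not, over a band from the 5th to the 95th percentile of all genes with a line at their median; blue points are 2-cell embryos with KO libraries 5, 6 and 8 only. Blastocysts lie between -0.13 and 0.15, 2-cell embryos spread upward around a median of 0.83 with none called, around -0.04 with the 3 libraries, and most OE points lie above 0, with 61 genes called higher and 1 lower.

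WT mESCs and E14 controls, both with intact *Zfp708*, differed as well. Cell line, derivation and culture cannot be told apart in this comparison. Of 79 tested genes 46 were higher in WT mESCs and 4 lower (60.6% of all genes called, 26.3% and 34.3%), and 17 and 1 with near-identical libraries averaged, a fit that called 27.2% of all genes. The summed level of the 12 fibroblast markers was 6.637 to 10.48 in WT mESCs, with 5 of the 12 at 0 in every library, and 111 to 120 in E14 controls, with 2 at 0. The sum of the 6 pluripotency markers was 3253 to 3612 and 2872 to 2931. The part of either in the difference was not tested. *Ndufs5*, an accessory subunit of complex I on chromosome 4 (mm9, 123389953 to 123395445), was at 10.4, 11.3 and 12.2 in WT mESCs and 0.0529, 0.116 and 0.155 in E14 controls (log2 difference 3.47, SE 0.11, adjusted p = 3.64e-06). It was at 0.126 to 0.291 in OE cells and 11.01 to 11.9 in KO mESCs, so E14 cells were low whatever their treatment. Of its 75-base windows 43.6% occur elsewhere in the genome. *Atp5g1* (90.9 to 91.4 against 50.7 to 55.5) and *Cox7a1* (mean 10.3 against 3.16) were also higher in WT mESCs, and *Cox7a2l* was lower.

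Of the 13 subunits encoded by mtDNA, 9 were in the deposited expression table. Among these *mt-Co3* was at 0 in nearly all libraries and was not tested, and *mt-Nd3* never exceeded 7.13. The tested genes moved against the nuclear genes at some stages and with them at others. All 7 tested rose from WT GV oocyte to zygote (median log2 change 2.06; 32.3% of all genes rose), while most nuclear genes fell. *mt-Co1*, the catalytic subunit of complex IV, was at 393 to 1713 (median 871) and then 1791 to 3998 (median 2958). All 7 rose again at the 2-cell stage, as did most nuclear genes (median 2.00 for the mtDNA-encoded genes; 36.3% of all genes rose). There *mt-Co1* spread from 3269 to 27450. From the 2-cell stage to the blastocyst 7 of 8 fell (median -2.55; 33% of all genes fell), and *mt-Co1* was at 337, 740.5 and 836 in blastocysts. KO and WT samples differed in no mtDNA-encoded gene in GV oocytes, 2-cell embryos or blastocysts by limma, and 1 of 7 was lower in KO zygotes (6.38% of all genes). In mESCs 4 of 7 were higher in KO (8.26% of all genes). In OE cells 7 of 7 were higher (21.9% of all genes), by 0.18 to 0.64 on the log2 scale. Nuclear insertions of mtDNA and the capture of these transcripts by each library method were not examined.

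Genes that act beside the complexes were counted from the same fits. Cytochrome c, the carrier between complexes III and IV, is encoded by *Cycs* and the testis form *Cyct*. Both fell from WT GV oocyte to zygote, *Cycs* from a mean of 45.8 ± 10.0 to 22.9 ± 5.27 (SD, n = 7), and both rose in the blastocyst. Of 42 tested assembly factors 27 fell and 2 rose from oocyte to zygote, 27 of 45 rose and 8 fell at the 2-cell stage, and 29 of 45 rose and 5 fell in the blastocyst. Over all genes 32.7% fell and 32.3% rose at the first step. At the 2-cell stage 36.3% rose and 38.8% fell, and in the blastocyst 32.8% rose and 33% fell. *Ndufaf3*, an early assembly factor of complex I, went from a mean of 50.5 ± 10.8 in WT GV oocytes to 1.29 ± 0.912 in zygotes. In KO zygotes 4 of 40 assembly factors were higher and 3 lower (8.19% and 6.38% of all genes). *Lrpprc*, which stabilises mtDNA transcripts, was 1 of those higher (55.3 ± 7.44 in KO and 36.8 ± 3.92 in WT, log2 difference 0.57, SE 0.14, limma adjusted p = 0.00762).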

How the data were processed

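RNA-seq of 61 libraries in 12 conditions was used. The deposited values are a signal, gene counts that the authors divided by DESeq2 size factors, after STAR 2.4.2a alignment to mm9 and HTSeq counting on NCBIM37 genes, with a reverse-strand setting that the methods give beside the directional mESC libraries. Of 18504 rows, 108 repeats of an Ensembl gene were dropped, and 0 sample columns were unused. All values were whole multiples of the worth of 1 read (tolerance 0.01 read), which gave the depth. Since the values are not counts, limma 3.58.1 (R 4.3.3; trend and robust options) on log2(value + 1) was the main test in 14 comparisons, in place of the DESeq2 test of the study. A gene was tested if it reached 1 in enough libraries to fill the smaller of the compared groups. Tests were two-sided with Benjamini-Hochberg adjustment over all of them. edgeR 4.0.16 and DESeq2 1.42.0 on the recovered reads, other pseudocounts, filters and scalings, sample weights, a single fit of 12 conditions, a replicate block and omission of libraries were alternatives. The script was tested on simulated data.

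The genes, lists and tests were chosen with earlier results of these data known. Genes were named by role (core subunits), as alternative forms, as non-subunits, as genes at or near 0, or as up to 6 with the smallest adjusted p in each direction per comparison, and some genes that this rule names are not reported here. Named outside this rule, after their values were seen, were *Ndufs3*, *Uqcrh*, *Uqcrb*, *Ndufb2* and *Ndufb9*, *Ndufb6*, *Gm17596* and *Gabpa* for overlapping exons, and *Atp5l* and *Cox5b* for their repeated windows. Promoter sequences are from RefSeq (GRCm38.p6), and gene coordinates are those of mm9.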

Additional observations from a re-analysis of the deposited data

Results flagged for a closer look

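A library was taken as far from its group where the gap to its neighbour was large against the group's range (Dixon's test), which chance gives in about 1 in 20 groups. Of 188 groups of values, 28 held such a library. The library labelled KO 2-cell 7 was highest for *Ndufv1* (259.1), *Sdha* (410.7), *Uqcrc1* (624.3), *Uqcrfs1* (323.8), *Atp5a1* (1633), *Atp5b* (2743) and the sum of the F1 genes (5967, next 2843). Its granulosa marker sum was 5186 and its sum of 2-cell activation markers 0. The part of either in these levels was not tested. KO 2-cell library 6 was highest for *Cox6b2* (570.6), *Cox8a* (770.2) and the mtDNA-encoded sum (219000, next 89920). WT 2-cell library 4 was highest for *Cox6b2* (269.5) and *Cox8a* (597.2), and WT 2-cell library 7 for *Atp5g3* (68.39).

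WT GV library 6 was highest for the sums of complex I accessory subunits (2910), complex III (1139), complex IV (2697) and the membrane part and stalk of ATP synthase (1418). It was also highest for *Sdhb* (132.7), *Cox4i1* (477.5), *Cox5a* (408), *Cox6b2* (74.39), *Cox7a2* (305.7), *Cox7b* (206.8) and *Ndufa4* (201.4). KO GV library 1 had the lowest share of counts in these genes among KO oocytes (0.7453%). KO zygote library 6 was highest for *Cox6b1* (41.65) and the mtDNA-encoded sum (23850), and WT zygote library 2 for *Sdhb* (12.05).

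The KO effect (KO minus WT, with its sign) was higher in zygotes than in GV oocytes by the interaction term for *Uqcrc1* (1.69 on the log2 scale), *Atp5j2* (1.45), *Atp5g1* (1.26), *Cox6a2* (1.24), *Ndufb7* (1.15), *Uqcr10* (1.04), *Ndufa8* (1.03), *Ndufb5* (0.95), *Ndufb11* (0.9), *Cox7b* (0.87), *Uqcrh* (0.86), *Atp5e* (0.86), *Cox5a* (0.85), *Cox4i1* (0.79) and *Ndufb9* (0.78). It was lower in zygotes for *Ndufa1* (-1). *Uqcrc1* was near the floor in zygotes, with means of 1.87 in KO and 0.786 in WT. Between zygotes and 2-cell embryos the KO effect differed for *Cox7c* (2.36), *Atp5c1* (1.43) and *Atp5g1* (-1.05).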

How the results depend on the processing

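Calls among the 85 genes for KO against WT were 0 in GV oocytes (1 with DESeq2 and 1 with a replicate block; 0 to 1 without single libraries), 17 in zygotes (11 in a single fit of 12 conditions; 14 to 20), 0 in 2-cell embryos (4 with sample weights, 55 in the single fit, 5 with edgeR, 33 with DESeq2, 1 with the block, 1 without KO libraries 7 and 8; 0 to 1) and 0 in blastocysts throughout. Of all genes DESeq2 called 8.42% in GV oocytes, and the single fit called 5.1% in zygotes and 26.8% in 2-cell embryos. In 2-cell embryos weights called 3.16%, edgeR 2.12% and DESeq2 7.29% of all genes. In mESCs 10 of the 85 genes were called (28 with weights, where 47.6% of all genes were called, 1 in the single fit, 2 with the block, 0 with near-identical libraries averaged; 1 to 17). In OE cells 62 were called (1 in the single fit; 56 to 65), and WT mESCs against E14 gave 50 (3 in the single fit; 41 to 61). For these 2 comparisons averaging left 1 E14 control sample, and its counts are not set out here. The stage steps stayed within 1.5 times their count under every setting run. The zygote minus GV interaction gave 16 (5 in the single fit; 11 to 19). The 2-cell minus zygote interaction gave 3 (0 with a pseudocount of 5, 1 without a filter, 0 with quantile normalization, 1 without trend and robust options, 9 with weights, 18 in the single fit, 10 with edgeR, 18 with DESeq2, 1 without KO 2-cell libraries 2 and 7, 0 without 1, 2, 3, 4 and 7; 0 to 9). For the 2-cell minus zygote interaction the share of all genes called was 5.12% with weights and 11.8% in the single fit. It was 2.75% with edgeR and 5.43% with DESeq2. Replicate numbers did not pair the samples, and the block gave 17 calls in zygotes. *Atp5b*, WT zygote vs GV, turned to -0.30 under quantile normalization. *Cox6b2*, KO 2-cell vs zygote, turned to 1.35 without KO 2-cell libraries 1, 2, 3, 4 and 7. *Ndufa4*, KO vs WT mESCs, ranged from -0.19 to 0.15, and *Ndufa4*, WT mESCs vs control E14, from -0.10 to 0.24 without single libraries, with the turn at WT library 2. The causes were not tested. Settings with fewer libraries were chosen after seeing the data for 2-cell groups, as was scaling to total reads. Low counts in single zygotes, such as *Uqcrc1* with 3 libraries at 0, limit precision.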

Other observations

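Other mitochondrial genes were counted from the same fits. Mitochondrial ribosomal proteins, which translate the mtDNA-encoded subunits, fell in 55 and rose in 9 of 75 tested from WT GV oocyte to zygote (median log2 change -1.59; 32.7% and 32.3% of all genes). They rose in 38 and fell in 20 of 75 at the 2-cell stage (36.3% and 38.8% of all genes). In the blastocyst they rose in 62 and fell in 2 of 76 (32.8% and 33% of all genes). *Mrpl14* went from a mean of 148.8 in GV oocytes to 10.7 in zygotes, and *Mrpl41* from 2.13 in zygotes to 96.4 in 2-cell embryos. TCA cycle genes fell in 12 and rose in 4 of 17 in zygotes (32.7% and 32.3% of all genes). *Mdh2*, the mitochondrial malate dehydrogenase, had a mean of 202.6 in GV oocytes, 9.61 in zygotes and 268.3 in 2-cell embryos. In the blastocyst 16 of 18 TCA cycle genes were higher (32.8% of all genes).

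Among regulators of mitochondrial biogenesis 12 of 17 rose and 3 fell at the 2-cell stage (36.3% and 38.8% of all genes). *Gabpa*, the DNA-binding subunit of the ETS factor NRF2, had a mean of 0.664 ± 0.372 in WT zygotes and 527.5 ± 163.9 in 2-cell embryos (SD, n = 7; log2 change 8.27, SE 0.25, limma adjusted p = 1.08e-16), and *Yy1* went from 1.46 to 68.4. In KO against WT zygotes 10 of 74 mitochondrial ribosomal genes were higher and 7 lower (8.19% and 6.38% of all genes), with *Mrpl55* higher by 1.76 on the log2 scale. In OE cells 29 of 76 were higher and 2 lower (21.9% and 28.1% of all genes).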
